A study of Mus musculus with 15 samples.

Results

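Acute phase proteins are plasma proteins whose output by the liver changes during inflammation, and 10 mouse genes that encode proteins of this class were described in liver RNA from mice on 3 diets. The genes were taken from the tables by symbol: Saa1, Saa2, Saa3, Saa4, Orm1, Orm2, Hp, Hpx, Lcn2 and Apcs, 10 of the 23420 genes in the count tables. All 10 were found and all 10 had enough counts to be tested. RNA with a polyA tail had been sequenced from pulverized left liver lobes of male C57Bl/6J mice, an inbred strain, with 5 libraries for each diet. The MCD mice received a diet with 31% fat deficient in methionine, choline and folate, the HFD mice a high-fat diet with 31% fat, and the BD mice a base diet with 4% fat. Mice on every diet had been given the same vehicle, 5% Alkmauls El-620 in saline, 24 h earlier, so no library stands for an undosed liver. The series concerns the handling of tetrachloroethylene in fatty liver, and no library here came from an exposed mouse. MCD feeding is a dietary model of steatohepatitis, and the labels give neither the length of feeding nor the age of the mice.

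In the acute phase response, cytokines released by macrophages act on hepatocytes. The interleukin 6 family signals through STAT3, and interleukin 1 and tumour necrosis factor through NF-kB and C/EBP factors, and together they raise transcription of the positive acute phase genes. The serum amyloid A proteins travel on high-density lipoprotein, the orosomucoids bind small lipophilic molecules, haptoglobin and hemopexin capture haemoglobin and haem, lipocalin 2 withholds iron from bacteria by binding siderophores, and serum amyloid P (the product of Apcs) is the main acute phase pentraxin of the mouse. Saa4 is the exception within its family, being regarded as a constitutive gene.

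Gene counts per library ran from 3704642 to 23131089 (median 10312311), so 3 counts corresponded to 0.130 to 0.810 CPM. CPM is counts per 1000000 gene counts throughout. A difference was called where edgeR's quasi-likelihood test gave a Benjamini-Hochberg adjusted p under 0.05 over all 12193 genes tested. Whether the libraries of a diet came from separate mice is not stated in the labels, and p-values here reflect only the spread between libraries, which may be technical. The BD samples carry a separate run of title numbers, and any difference in handling that follows those numbers and the effect of the base diet cannot be told apart. The defining hepatocyte gene Alb was at 84680 CPM or above in every library. Of 6 hepatocyte markers, 2 were called lower and 0 higher in MCD against BD, and 1 and 0 in HFD against BD. Over all genes tested, 8.64% were called lower in MCD against BD and 3.27% in HFD against BD. HFD replicate 2 stood apart from the other HFD libraries: it was the highest of the 5 for 9 of the 10 genes, and the summed level of 9 markers of recruited and lipid-associated macrophages was 156 CPM there, against 81.8 to 107 CPM in the other HFD libraries. Where it moves a result, the value without it is given.

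The 4 serum amyloid A genes lie within 42.3 kb on chromosome 7 (GRCm38), in the order Saa3, Saa4, Saa1, Saa2, at chr7:46711998-46754313. Saa1 (chr7:46740497-46742980, minus strand) and Saa2 (chr7:46751790-46754313, plus strand) are a near-identical pair transcribed away from each other: their reference transcripts matched at 94.4% of aligned bases, and 13.2% of the 50-base windows of the Saa1 transcript occurred unchanged in Saa2. Orm1 (chr4:63344560-63348163) and Orm2 (chr4:63362449-63365878) matched at 91.0%, with 20.4% of windows shared, and Orm3 lies between them. Reads from shared stretches have no unique position, so the split within each pair is uncertain. Lcn2 is at chr2:32384633-32388252, Apcs at chr1:172893961-172895041, Hp at chr8:109575128-109579172 and Hpx at chr7:105591613-105600137, all on the minus strand. No other annotated gene overlapped any of the 10.

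Promoters are shown so that words known to bind C/EBP and STAT factors, and the TATA word, can be read in them. No word for NF-kB was searched, so unmarked bases say nothing about it. They are the 250 bases before the RefSeq start (GRCm38.p6), written 5′ to 3′ on the gene's own strand, for the 6 genes that the results below turn on. Capitals mark matches, on either strand, to the C/EBP word TTGCNNAA (Saa1, Saa2, Saa3, Orm2 and Lcn2), the STAT word TTCNNNGAA (Apcs) and the TATA word TATAAA (Orm2).
Saa1 promoter, chr7:46742981-46743230, minus strand: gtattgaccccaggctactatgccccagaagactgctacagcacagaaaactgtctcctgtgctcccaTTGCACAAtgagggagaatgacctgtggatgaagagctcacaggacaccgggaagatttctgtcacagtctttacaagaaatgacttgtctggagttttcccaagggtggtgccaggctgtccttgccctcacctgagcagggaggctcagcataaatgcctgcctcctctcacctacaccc
Saa2 promoter, chr7:46751583-46751832, plus strand: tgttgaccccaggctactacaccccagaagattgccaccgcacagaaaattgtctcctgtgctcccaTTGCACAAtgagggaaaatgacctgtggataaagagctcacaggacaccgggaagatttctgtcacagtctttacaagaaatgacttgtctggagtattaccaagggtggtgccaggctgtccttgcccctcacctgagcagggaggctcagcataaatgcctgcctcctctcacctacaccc
Saa3 promoter, chr7:46715677-46715926, minus strand: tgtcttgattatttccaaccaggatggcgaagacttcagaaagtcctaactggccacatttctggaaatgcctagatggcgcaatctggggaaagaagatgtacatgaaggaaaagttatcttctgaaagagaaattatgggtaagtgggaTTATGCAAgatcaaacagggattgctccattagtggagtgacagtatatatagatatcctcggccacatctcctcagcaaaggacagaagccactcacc
Orm2 promoter, chr4:63362199-63362448, plus strand: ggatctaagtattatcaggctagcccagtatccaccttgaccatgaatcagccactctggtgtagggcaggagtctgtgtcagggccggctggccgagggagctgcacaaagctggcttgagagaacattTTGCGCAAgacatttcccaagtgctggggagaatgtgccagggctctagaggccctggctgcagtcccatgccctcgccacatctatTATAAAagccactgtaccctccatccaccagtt
Lcn2 promoter, chr2:32387740-32387989, minus strand: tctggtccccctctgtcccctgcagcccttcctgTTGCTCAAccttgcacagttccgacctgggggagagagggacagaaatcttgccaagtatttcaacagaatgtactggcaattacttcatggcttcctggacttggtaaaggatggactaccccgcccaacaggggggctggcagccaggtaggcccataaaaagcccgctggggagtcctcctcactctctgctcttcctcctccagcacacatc
Apcs promoter, chr1:172895055-172895304, minus strand: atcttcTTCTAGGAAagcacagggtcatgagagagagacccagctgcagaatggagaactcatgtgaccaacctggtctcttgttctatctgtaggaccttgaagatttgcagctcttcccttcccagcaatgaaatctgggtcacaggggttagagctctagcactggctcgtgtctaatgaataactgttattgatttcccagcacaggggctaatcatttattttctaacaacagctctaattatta
Of the 10 genes, 8 had a promoter in the RefSeq table (all but Orm1 and Hp). The C/EBP word occurred in 7 of these 8, being present also in Saa4 and Hpx, and in 9.56% of 32851 mouse promoters of the same length. The STAT word occurred in Apcs and in 7.02% of all promoters and the TATA word in Orm2 and in 12.4%. The words overlapped nowhere in the sequences shown. The promoters of Saa1 and Saa2 were identical at 95.6% of 249 aligned bases, and their C/EBP words began 182 and 183 bases before the start. A match describes letters and does not show that a factor is bound.

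Set against transcript length, the ranking of the 10 genes was headed by Hpx, Hp and Orm1 on every diet, and Saa3 was the lowest on MCD and HFD. On that scale Hpx averaged 3240 ± 246 CPM per kb in MCD livers, 3115 ± 586 in HFD livers and 2578 ± 308 in BD livers (SD, n = 5 each). Saa3 averaged 14.7 ± 2.70 CPM per kb in MCD livers, 6.47 ± 2.10 in HFD livers and 4.70 ± 1.63 in BD livers. Lcn2 was the lowest of the 10 in BD livers at 3.72 ± 1.66 CPM per kb and stood eighth in MCD livers at 44.2 ± 18.7 CPM per kb. Its difference from Saa3 in BD livers was within their spread. Together the 10 genes took 0.826% to 0.996% of gene counts in MCD libraries, 0.746% to 1.40% in HFD libraries, where HFD replicate 2 gave the highest share, and 0.676% to 0.935% in BD libraries.

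MCD livers had more Saa3, Lcn2 and Apcs RNA than BD livers, by 2.75-fold, 10.6-fold and 1.45-fold. HFD livers had more Apcs RNA than BD livers, by 1.52-fold, and MCD livers had more Saa3 RNA than HFD livers, by 2.10-fold. The abundant genes Hp, Hpx, Orm1 and Saa4 passed in no comparison. In numbers, 3 of 10 were called higher and 0 lower in MCD against BD, where 12.8% of all genes tested were called higher and 8.64% lower. For HFD against BD 1 of 10 was higher and 0 lower, beside 3.65% and 3.27% of all genes. For MCD against HFD 1 of 10 was higher and 0 lower, beside 2.22% and 0.927% of all genes. With so few members these counts do not set the 10 genes apart from the rest. With no adjustment, edgeR gave 0, 0 and 1 lower member at p under 0.05 in MCD against BD, HFD against BD and MCD against HFD, and DESeq2 and limma-voom called 0 lower in each. The comparisons with BD share the BD libraries and are not independent. The members' median log2 fold change was 0.76 for MCD against BD, 0.49 for HFD against BD and -0.11 for MCD against HFD, and that over all genes was -0.03, -0.01 and 0.00. With HFD replicate 2 left out, the members' median was 0.78, 0.22 and 0.08, the last of the other sign.

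**Figure D1:**
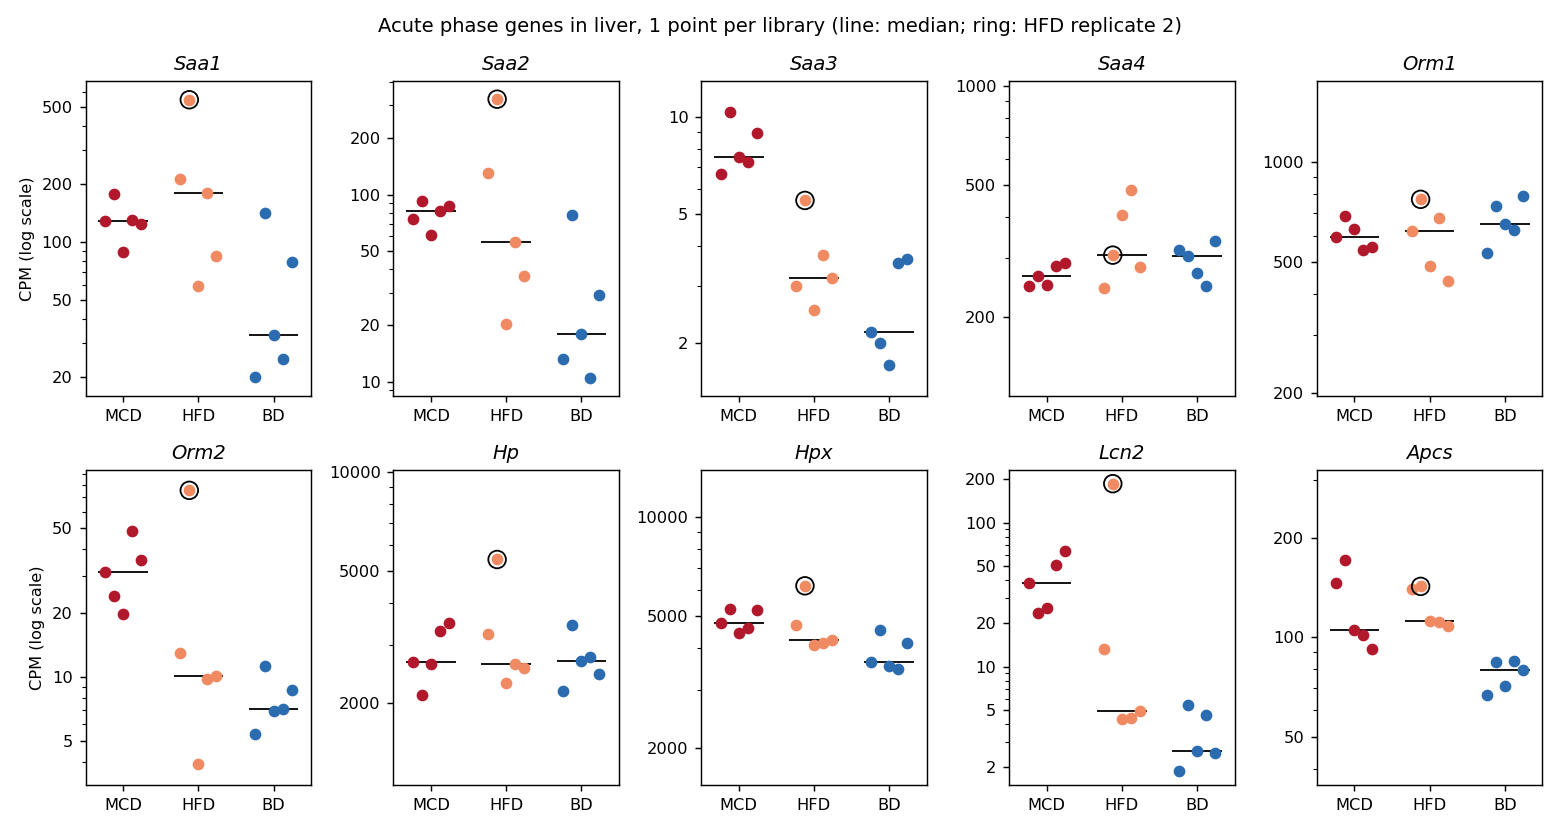
CPM (log scale) of each gene in each library, 1 point per library, with MCD, HFD and BD from left to right; lines are medians of 5 libraries and the ring marks HFD replicate 2. Saa3, Orm2, Lcn2 and Apcs of the MCD libraries lie above all BD libraries, and HFD replicate 2 lies far above the other HFD libraries for Lcn2 (187 CPM against at most 13.3 CPM) and Orm2 (75.4 CPM against at most 12.9 CPM).

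Without regard to any test, every MCD library lay above every BD library for 4 of the 10 genes (Saa3, Orm2, Lcn2 and Apcs), as for 13.5% of all genes. Every HFD library lay above every BD library for 1 of 10 (Apcs), as for 5.11% of all genes, and every MCD library above every HFD library for 1 of 10 (Saa3), as for 3.85%.

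Among the serum amyloid A genes, Saa3, which in the mouse is made by macrophages and fat cells as well as by liver cells, was the only family member that passed. Saa3 was 6.66, 10.4, 7.53, 7.27 and 8.97 CPM in the MCD libraries, 3.00, 5.53, 2.52, 3.73 and 3.18 CPM in the HFD libraries and 2.16, 2.001, 1.71, 3.54 and 3.63 CPM in the BD libraries. All 5 MCD libraries were above all 10 others, and the HFD and BD libraries overlapped. The log2 fold change was 1.46 ± 0.24 (SE) for MCD against BD (edgeR adjusted p = 3.03e-04), 1.07 ± 0.23 for MCD against HFD (edgeR adjusted p = 0.0181) and 0.39 ± 0.25 for HFD against BD (edgeR adjusted p = 0.437). The call against BD held under all 25 alternatives run (adjusted p at most 0.00217). The call against HFD ended without HFD replicate 1 (edgeR adjusted p = 0.0516), 4 (0.0586) or 5 (0.0510) and with the non-unique alignments as a covariate (0.0584).

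Saa3 moved alongside markers of other liver cells, and in bulk tissue more cells of a type and more RNA per cell cannot be told apart. All 9 tested markers of recruited and lipid-associated macrophages were called higher in MCD against BD. In HFD against BD 1 of 9 was called higher, and in MCD against HFD 3 of 9. Over all genes tested, 12.8%, 3.65% and 2.22% were called higher in these comparisons. The summed level of these macrophage markers was 128.99 to 230 CPM in MCD, 81.8 to 156 CPM in HFD and 57.3 to 77.1 CPM in BD livers. Gpnmb was at 0 in 2 of the 15 libraries. Of the 6 Kupffer cell markers, those of the resident liver macrophage, 5 were called higher in MCD against BD and 1 in HFD against BD. Their sum was 303 to 449 CPM in MCD, 256 to 366 CPM in HFD and 160 to 295 CPM in BD livers. Stellate and endothelial markers had 5 of 6 and 3 of 6 called higher in MCD against BD, with sums of 407 to 565 and 292 to 339 CPM in MCD livers and 239 to 316 and 225 to 286 CPM in BD livers. In HFD against BD 0 of 6 were called higher in either of these lists. In MCD against HFD, 0 Kupffer, 2 stellate and 1 endothelial markers were called higher. Of 5 fat cell genes, Lep, Plin1, Adipoq and Retn were at 0 in 15, 14, 13 and 13 of the 15 libraries. The fifth, Cfd, had 1.09 to 7.39 CPM in MCD, 0.0957 to 19.1 CPM in HFD and 0 to 1.5004 CPM in BD livers, HFD replicate 2 again being the highest, and did not pass in MCD against BD (log2 fold change 2.40 ± 1.08, edgeR adjusted p = 0.138) or HFD against BD (3.03 ± 1.07, edgeR adjusted p = 0.124). The part of these cells in the Saa3 result was not tested.

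Saa1 and Saa2, the inducible hepatocyte genes of the family, varied several-fold within the HFD and BD groups and passed in no comparison. Saa1 was 129.3, 179, 89.5, 131 and 124 CPM in the MCD libraries, 212, 547, 59.3, 179 and 84.8 CPM in the HFD libraries and 19.98, 141, 33.2, 24.9 and 79.5 CPM in the BD libraries. The MCD libraries stayed within 1.996-fold of each other, whereas the highest HFD library was 9.22 times the lowest and the highest BD library 7.06 times the lowest. The coefficient of variation was 24.3% on MCD, 90.2% on HFD (54.8% without replicate 2) and 85.8% on BD; the differences between these were not tested. For Saa1 the log2 fold change was 1.76 ± 0.63 for HFD against BD (edgeR adjusted p = 0.132), 0.98 ± 0.62 for MCD against BD (edgeR adjusted p = 0.299) and -0.78 ± 0.61 for MCD against HFD (edgeR adjusted p = 0.515). The 95% interval of the HFD fold ran from 1.31 to 8.79 and that of the MCD fold, both against BD, from 0.771 to 5.03.

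Saa2 followed its neighbour. It was 73.7, 92.3, 60.9, 81.7 and 86.7 CPM in the MCD libraries, 131, 323, 20.4, 56.1 and 37.0 CPM in the HFD libraries and 13.2, 78.1, 18.0, 10.5 and 29.3 CPM in the BD libraries. BD replicate 2 alone of the BD libraries reached the MCD range for either gene, and HFD replicate 2 was the highest library of all for both. For Saa2 the log2 fold change was 1.82 ± 0.71 for HFD against BD (edgeR adjusted p = 0.163), 1.24 ± 0.70 for MCD against BD (edgeR adjusted p = 0.236) and -0.58 ± 0.67 for MCD against HFD (edgeR adjusted p = 0.675). Without HFD replicate 2 the log2 fold change for HFD against BD was 1.11 for Saa1 and 0.98 for Saa2, and neither passed (edgeR adjusted p = 0.326 and 0.437). For MCD against HFD it was -0.11 for Saa1 and 0.28 for Saa2 without that library (edgeR adjusted p = 0.932 and 0.813), so the direction for Saa2 turned. Summing the counts of both genes before the fit, which removes doubt about their split, gave 1.79 for HFD against BD and 1.09 for MCD against BD (edgeR adjusted p = 0.141 and 0.264). Saa2 made up 23.8% to 41.1% of the Saa1 and Saa2 CPM, and the 3 libraries with the most non-unique alignments per gene count had the 3 lowest shares (26.9%, 23.8% and 25.6%). DESeq2 called Saa1 higher in HFD than BD livers (adjusted p = 0.0416), which edgeR did not.

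Saa4, the constitutive gene of the cluster, was 247, 265, 249, 284 and 290 CPM in the MCD libraries, 245, 307, 405, 484 and 283 CPM in the HFD libraries and 317, 306, 271, 247 and 338 CPM in the BD libraries. The groups overlapped in each comparison. Saa4 was also the only member for which HFD replicate 2 was not the highest HFD library. Its log2 fold change was -0.45 ± 0.15 for MCD against HFD (edgeR adjusted p = 0.116, unadjusted p = 0.00950), -0.29 ± 0.15 for MCD against BD (edgeR adjusted p = 0.205) and 0.16 ± 0.15 for HFD against BD (edgeR adjusted p = 0.627).

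Lcn2 had the largest fold changes of the 10 genes against BD, and on HFD they rested on 1 library. Lcn2 was 38.0, 23.6, 25.5, 51.02 and 63.8 CPM in the MCD libraries, 13.3, 187, 4.35, 4.40 and 4.90 CPM in the HFD libraries and 1.89, 5.40, 2.60, 4.63 and 2.51 CPM in the BD libraries. Each MCD library was above all BD libraries and above 4 of the 5 HFD libraries. In log2 terms the fold change was 3.41 ± 1.11 for MCD against BD (edgeR adjusted p = 0.0462), 3.57 ± 1.12 for HFD against BD (edgeR adjusted p = 0.0816) and -0.16 ± 0.90 for MCD against HFD (edgeR adjusted p = 0.952). Without HFD replicate 2 it was 3.43 for MCD against BD (edgeR adjusted p = 4.15e-05), 0.97 for HFD against BD (edgeR adjusted p = 0.273) and 2.46 for MCD against HFD (edgeR adjusted p = 0.00214), the last turning direction and passing.

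The MCD call for Lcn2 was close to the threshold with all 15 libraries, which share 1 estimate of the spread. It ended when any 1 BD library (edgeR adjusted p from 0.0757 to 0.0984) or any 1 MCD library (0.0533 to 0.0808) was left out, without the count filter (0.0644) and with the non-unique alignments as a covariate (log2 fold change 1.49, edgeR adjusted p = 0.145). With the 10 MCD and BD libraries alone the edgeR adjusted p was 3.92e-05. Non-unique alignments per gene count were 1.19 to 1.66 in MCD and 1.49 to 2.80 in BD libraries, and HFD replicate 2 had the lowest ratio of the 15, at 1.15. DESeq2 called Lcn2 higher in HFD than BD livers as well (adjusted p = 0.00248).

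Lcn2 is also a granule gene of neutrophils. Among their other granule genes, Camp, Mpo and Ngp were at 0 in 13, 12 and 11 of the 15 libraries, and Ltf did not exceed 0.121 CPM. The granule genes Elane and Mmp8 were at 0 in 8 and 7 of the 15 libraries. Mmp9, also a granule gene, was at 0 in 0 of the 15 libraries, with 0.100 to 0.650 CPM. Mmp8 had 0.0584 to 0.173 CPM in MCD, 0 to 0.229 CPM in HFD and 0 CPM in BD livers, from 9, 4 and 0 counts in total. The 11 neutrophil markers found summed to 5.70 to 7.87 CPM in MCD, 4.21 to 6.59 CPM in HFD and 1.80 to 3.78 CPM in BD livers. HFD replicate 2 had the highest of the HFD sums, with the others at 4.21 to 5.57 CPM. Of the neutrophil markers Csf3r alone had enough counts to be tested, and it was called higher in both comparisons with BD. It had 2.95 to 4.05 CPM in MCD, 2.75 to 4.07 CPM in HFD and 0.900 to 2.28 CPM in BD livers, with a log2 fold change of 1.05 ± 0.22 for MCD against BD and 0.97 ± 0.23 for HFD against BD (edgeR adjusted p = 0.00205 and 0.0128). S100a8 had 0.526 to 0.908, 0.265 to 0.916 and 0 to 0.300 CPM in MCD, HFD and BD livers, and S100a9 0.350 to 1.77, 0.257 to 1.07 and 0.134 to 0.810 CPM. The cholangiocyte markers, those of bile duct cells, summed to 82.5 to 281 CPM in MCD, 58.7 to 199 CPM in HFD and 53.4 to 91.5 CPM in BD livers. Within HFD the highest of these sums was again replicate 2, with the others at 58.7 to 84.3 CPM, and most of the sum came from Spp1. In MCD livers Spp1 averaged 163 CPM, and the other markers of this list 0.873 to 6.07 CPM each. The sums thus follow Spp1 and are no measure of bile duct cells. Of 4 cholangiocyte markers tested, Spp1 was called higher in MCD against BD (log2 fold change 1.44 ± 0.41, edgeR adjusted p = 0.0253) and Sox9 lower in MCD against BD (-0.85 ± 0.21, edgeR adjusted p = 0.00777) and in HFD against BD (-0.95 ± 0.22, edgeR adjusted p = 0.0124). The part of these cells in the Lcn2 result was not tested.

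**Figure D2:**
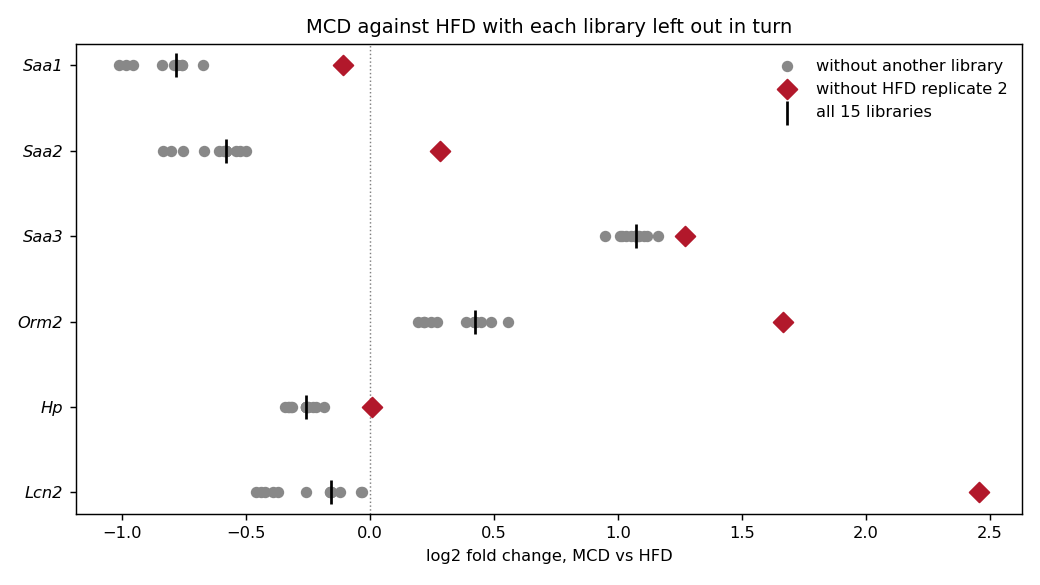
The log2 fold change (horizontal axis) of 6 genes for MCD against HFD with all 15 libraries (bar), without HFD replicate 2 (diamond) and without each of the other 14 libraries (grey points). Lcn2 lies at -0.16 with all libraries and at 2.46 without HFD replicate 2, and Orm2 at 0.42 and 1.67, whereas Saa3 lies at 1.07 and 1.27.

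Of the orosomucoid genes, the less abundant Orm2 was higher in every MCD library than in any BD library but missed the threshold with all libraries, and the abundant Orm1 overlapped between diets. Orm2 was 31.3, 24.1, 19.9, 48.7 and 35.6 CPM in the MCD libraries, 12.9, 75.4, 3.89, 9.76 and 10.1 CPM in the HFD libraries and 5.40, 11.3, 6.91, 7.08 and 8.68 CPM in the BD libraries. MCD and BD did not overlap, and 4 of the 5 HFD libraries fell below every MCD library. Its log2 fold change of 1.84 ± 0.63 for MCD against BD missed the threshold with all 15 libraries (edgeR adjusted p = 0.0566). It passed without HFD replicate 2 (1.86, edgeR adjusted p = 1.35e-04), without HFD replicate 3 (0.0363), with the MCD and BD libraries alone (1.61e-04), and with DESeq2 (0.0139) or limma-voom (0.0145). With the non-unique alignments as a covariate it was 0.86 (edgeR adjusted p = 0.316). For HFD against BD it was 1.41 ± 0.64 (edgeR adjusted p = 0.235), and 0.19 without HFD replicate 2. For MCD against HFD it was 0.42 ± 0.59 (edgeR adjusted p = 0.736), and 1.67 without HFD replicate 2 (edgeR adjusted p = 0.00223).

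Orm1 was 596, 689, 630, 543 and 553 CPM in the MCD libraries, 620, 772, 485, 680 and 437 CPM in the HFD libraries and 530, 739, 650, 626 and 790 CPM in the BD libraries. The 3 groups overlapped, and the log2 fold change was -0.28 ± 0.14 for MCD against BD (edgeR adjusted p = 0.174). For HFD against BD it was -0.22 ± 0.14 and for MCD against HFD -0.06 ± 0.14 (edgeR adjusted p = 0.422 and 0.863). Orm2 took 3.05% to 8.23% of the Orm1 and Orm2 CPM in MCD libraries, 0.797% to 8.90% in HFD libraries and 1.01% to 1.51% in BD libraries. The 3 orosomucoid genes summed before the fit, a total made up mostly of Orm1, gave -0.22 for MCD against BD (edgeR adjusted p = 0.311).

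Leaving out HFD replicate 2 raised the count of members called higher in MCD against HFD to 3 of 10 (Saa3, Orm2 and Lcn2), where 6.80% of all genes tested were called higher in the same fit.

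The haemoglobin and haem scavengers were the most abundant of the 10 genes per length and passed in no comparison. Hp was 2656, 2110, 2626, 3293 and 3496 CPM in the MCD libraries, 3235, 5433, 2293, 2627 and 2554 CPM in the HFD libraries and 2166, 3450, 2682, 2762 and 2448 CPM in the BD libraries. The groups overlapped throughout, and HFD replicate 2 was again the highest. The fold of Hp was 0.951 for MCD against BD (95% interval 0.717 to 1.26, edgeR adjusted p = 0.830) and 1.14 for HFD against BD (0.857 to 1.51, edgeR adjusted p = 0.660). Hpx was 4759, 5268, 4445, 4596 and 5214 CPM in the MCD libraries, 4700, 6180, 4079, 4143 and 4242 CPM in the HFD libraries and 3641, 4532, 3527, 3465 and 4154 CPM in the BD libraries. Of the MCD libraries, 4 were above every BD library. The fold of Hpx was 1.14 for MCD against BD (95% interval 0.968 to 1.35, edgeR adjusted p = 0.250) and 1.15 for HFD against BD (0.976 to 1.36, edgeR adjusted p = 0.342). For MCD against HFD the fold was 0.836 for Hp and 0.991 for Hpx (edgeR adjusted p = 0.483 and 0.970). Without HFD replicate 2 the fold of Hp was 0.96 for HFD against BD and 1.01 for MCD against HFD (edgeR adjusted p = 0.893 and 0.983), both on the other side of 1. Without that library the fold of Hpx was 1.08 in each of these comparisons. Hpx passed for MCD against BD without TMM factors (log2 fold change 0.33, edgeR adjusted p = 0.0475), a scaling that also moved the median of all genes to 0.12.

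Apcs, the pentraxin gene, was the 1 member called in both comparisons with BD. It was 145, 171, 105, 101 and 91.8 CPM in the MCD libraries, 140, 142, 112, 111 and 108 CPM in the HFD libraries and 66.9, 84.3, 71.1, 84.9 and 79.4 CPM in the BD libraries. Neither 31% fat group overlapped with BD, and they overlapped with each other. The log2 fold change was 0.54 ± 0.16 for MCD against BD (edgeR adjusted p = 0.0199) and 0.60 ± 0.16 for HFD against BD (edgeR adjusted p = 0.0257). For MCD against HFD it was -0.06 ± 0.15, with a 95% interval of the fold from 0.763 to 1.20 (edgeR adjusted p = 0.861). The HFD call ended without BD replicate 1 (edgeR adjusted p = 0.0628) or 3 (0.0697) or HFD replicate 1 (0.0587) or 2 (0.0602), and the MCD call without BD replicate 3 (0.0501) or MCD replicate 1 (0.0512). Crp, the gene of the other short pentraxin, C-reactive protein, which responds little in the mouse, had a log2 fold change of -0.04 ± 0.11 for MCD against BD and -0.08 ± 0.11 for HFD against BD (edgeR adjusted p = 0.846 and 0.739).

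**Figure D3:**
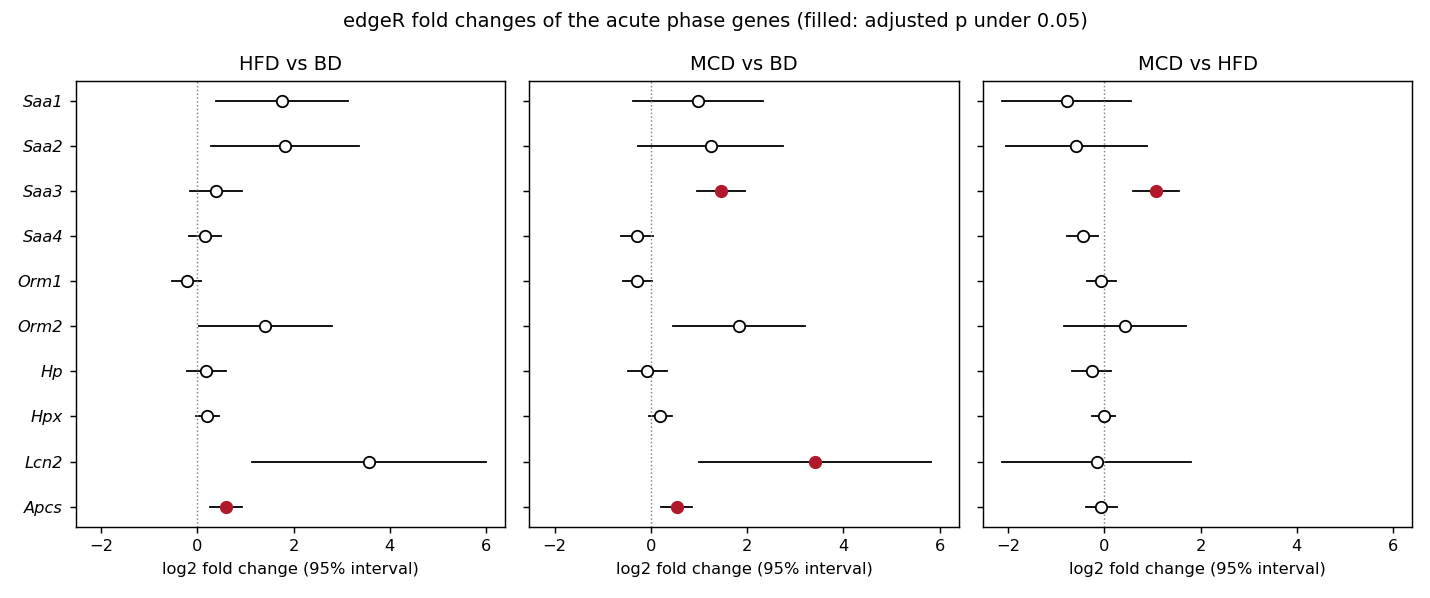
edgeR log2 fold changes (points) with 95% intervals (lines) of the 10 genes in each comparison; filled points have an adjusted p under 0.05. Saa3, Lcn2 and Apcs are filled for MCD against BD, Apcs for HFD against BD and Saa3 for MCD against HFD, and the intervals of Saa1, Saa2, Orm2 and Lcn2 are the widest.

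Within diets some of the genes varied together. Over the 15 libraries, after each diet's mean log2 CPM was subtracted, Pearson's r was 0.95 for Saa1 and Saa2 (Spearman's rho 0.93), 0.93 for Hp and Lcn2 (rho 0.91), 0.92 for Orm2 and Lcn2 (rho 0.86) and 0.89 for Orm2 and Hp (rho 0.81). With HFD replicate 2 left out of the correlation these r were 0.94, 0.88, 0.77 and 0.77. With the 2 libraries farthest from the median of the first-named gene of each pair left out, they were 0.90, 0.87, 0.75 and 0.78. In both cases the diet means subtracted still came from all 15 libraries, so these r are not free of the libraries left out. Saa1, Saa2, Orm1, Hpx, Orm2, Hp and Lcn2, a group picked by hand, formed 21 pairs with r from 0.36 to 0.95. With the same means subtracted, these r ran without HFD replicate 2 from 0.09 to 0.94, and without the 2 farthest libraries from -0.10 to 0.90. Hp thus varied with Lcn2 between libraries of the same diet, while Hp passed in no comparison of diets. Saa4 had r between -0.39 and 0.13 with the other 9 genes, Apcs between -0.25 and 0.57, and Saa3 between 0.05 and 0.55. The picked group has no sharp border. Inside it Orm1 had r of 0.36 with Hp and 0.41 with Lcn2, and outside it 0.57 with Apcs and 0.55 with Saa3. These values describe 45 pairs in libraries that share their depth and scaling, and carry no test.

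**Figure D4:**
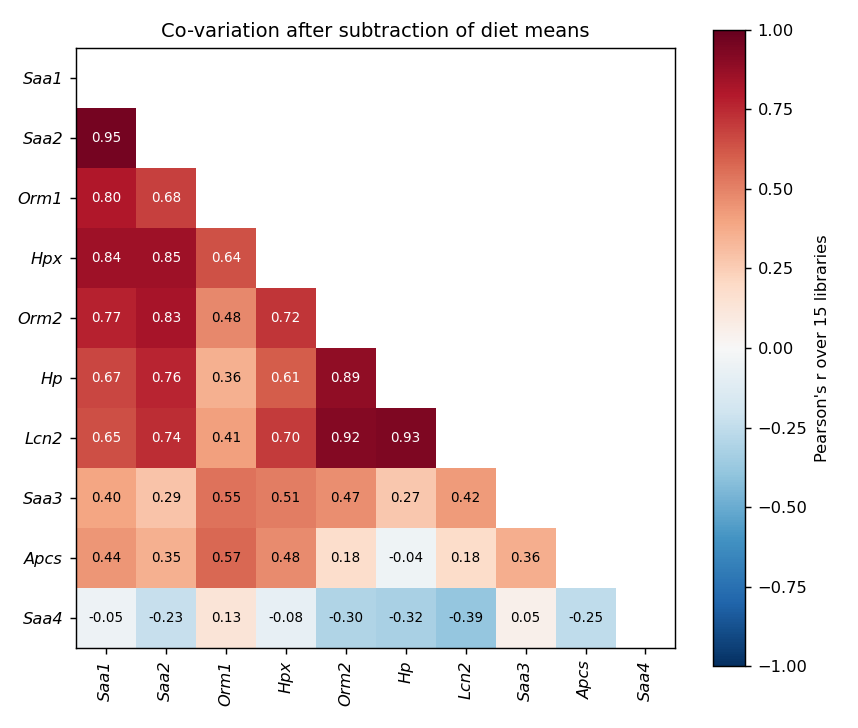
Pearson's r of log2 CPM between each pair of the 10 genes over 15 libraries after subtraction of diet means. Saa1, Saa2, Orm1, Hpx, Orm2, Hp and Lcn2, a group picked by hand, have r of 0.36 to 0.95 with each other over all libraries. With HFD replicate 2 dropped after the means were subtracted, these r were 0.09 to 0.94. The row of Saa4 lies between -0.39 and 0.13.

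By the same measure over all tested genes outside the 10, the closest gene was Slc13a3 for Hp (r = 0.96), Sprr1a for Lcn2 (0.93), Cd81 for Saa2 (0.92), Cyp4v3 for Saa4 (0.92), Haus8 for Orm2 (0.91), Dnajc12 for Apcs (0.91), Wtip for Saa1 (0.87) and Orm1 (0.85), Tmem86a for Hpx (0.85) and Mpv17 for Saa3 (0.80), each over 15 libraries. They are the best of 12183 genes and are given as a description.

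Among other positive acute phase genes, more were called lower than higher in MCD against BD with all 15 libraries, by a margin that depended on the setting. Of 23 tested, 3 were called higher and 10 lower in MCD against BD, 3 higher and 1 lower in HFD against BD, and 0 higher and 6 lower in MCD against HFD. Over all genes tested, 12.8% were higher and 8.64% lower in MCD against BD, 3.65% and 3.27% in HFD against BD, and 2.22% and 0.927% in MCD against HFD. The 10 lower in MCD against BD became 5 without TMM factors (with 4 higher), 5 without MCD replicate 1, and 6 without the count filter, without BD replicate 1 or 2, or without MCD replicate 3, 4 or 5. The 6 lower in MCD against HFD became 2 without MCD replicate 1 and 3 without HFD replicate 1, 3 or 4, and without HFD replicate 2 there were 3 higher. The 1 lower in HFD against BD was Nnmt. Its call ended without any 1 BD library, HFD replicate 1, 2, 3 or 5, or MCD replicate 2, 3 or 4. It also ended without TMM factors or the count filter. Without HFD replicate 2, Orm3 was called lower in HFD against BD (log2 fold change -1.82, edgeR adjusted p = 0.0343). That call rested on few counts, 0 to 10 in the HFD libraries kept and 2 to 34 in the BD libraries. With all 15 libraries the log2 fold change of Orm3 was -0.35 (edgeR adjusted p = 0.830). The median log2 fold change of the 23 genes was -0.21 in MCD against BD, 0.05 in HFD against BD and -0.16 in MCD against HFD. For the 0 higher in MCD against HFD, edgeR gave 1 at p under 0.05 before adjustment, DESeq2 called 0 and limma-voom 1.

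Il1rn, which encodes the interleukin 1 receptor antagonist, was 8.14 to 21.1 CPM (median 14.2) in MCD, 3.71 to 17.1 CPM (median 5.12) in HFD and 0.816 to 1.97 CPM (median 1.79) in BD libraries. Both groups on 31% fat lay above BD without overlap. Its log2 fold change was 2.98 ± 0.42 for MCD against BD and 2.18 ± 0.43 for HFD against BD (edgeR adjusted p = 1.70e-04 and 0.00538). Steap4, a metalloreductase gene, had a log2 fold change of 1.08 ± 0.18 for HFD against BD (edgeR adjusted p = 0.00119).

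Itih3, an inter-alpha-trypsin inhibitor heavy chain gene, was 672 to 853 CPM in MCD livers, 1095 to 1293 CPM in HFD livers and 1037 to 1238 CPM in BD livers, the MCD libraries lying below all others. It fell by 0.65 on the log2 scale in MCD against BD and also by 0.65 in MCD against HFD (edgeR adjusted p = 2.16e-04 and 0.00437), and Itih4 by 0.68 in MCD against HFD (edgeR adjusted p = 0.00575). The fibrinogen chains Fga, Fgb and Fgg, chosen for mention after their values were seen, fell by 0.73, 0.62 and 0.62 in MCD against BD (edgeR adjusted p = 0.00446, 0.00646 and 0.0228). Fgg no longer passed without BD replicate 1 (edgeR adjusted p = 0.0635), MCD replicate 1 (0.0671), 4 (0.0616) or 5 (0.0615), and with the non-unique alignments as a covariate neither Fgg (0.142) nor Fgb (0.0609) passed.

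The negative acute phase genes, whose plasma proteins decline in inflammation, gave 0 higher and 2 lower of 11 in MCD against BD, 0 higher and 1 lower in HFD against BD, and 0 in either direction in MCD against HFD. The 2 lower in MCD against BD, where 8.64% of all genes were lower, became 5 without BD replicate 5, 4 with DESeq2 or the covariate, and 1 without TMM factors, BD replicate 1 or 2, or MCD replicate 1. For MCD against HFD, edgeR gave 0 higher and 1 lower at p under 0.05 before adjustment, and DESeq2 and limma-voom called 0. For the 0 higher against BD on both diets, edgeR before adjustment, DESeq2 and limma-voom also gave 0. Fetub, which encodes fetuin-B, fell by 0.53 in MCD against BD and by 0.56 in HFD against BD on the log2 scale (edgeR adjusted p = 0.00113 and 0.00195), with 370 to 509 CPM in MCD, 373 to 444 CPM in HFD and 566 to 594 CPM in BD livers. Ahsg, the fetuin-A gene, fell by 0.42 in MCD against BD (edgeR adjusted p = 0.0262), which ended without BD replicate 1 (0.0639) or 2 (0.0529) or MCD replicate 1 (0.0718), without TMM factors (0.0939) and with the non-unique alignments as a covariate (0.145). Igfals had the smallest p for MCD against HFD and did not pass (edgeR adjusted p = 0.191).

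Of the cytokines, 3 of 9 had enough counts to be tested, and edgeR called 0 in any comparison, as did DESeq2 and limma-voom. In MCD against BD edgeR called 1 higher without TMM factors, BD replicate 5 or MCD replicate 3, or with the covariate. Before adjustment, edgeR gave 1 higher at p under 0.05 in MCD against BD, 1 in MCD against HFD and 0 in HFD against BD, with 0 lower. Il6 had 0 to 2 counts per library and Il22 had 0 in all 15, a depth at which differences in these genes were not detectable. Tnf, which encodes tumour necrosis factor, and Lif, of the interleukin 6 family, also had too few counts to be tested. Tnf had 61 counts over the MCD, 26 over the HFD and 7 over the BD libraries, and was 0.467 to 1.12 CPM in MCD, 0.229 to 0.873 CPM in HFD and 0.0448 to 0.272 CPM in BD livers. Lif had 40, 10 and 4 counts on these diets, and was 0.203 to 0.765 CPM in MCD, 0 to 0.388 CPM in HFD and 0 to 0.200 CPM in BD livers. For Tnf and Lif every MCD library lay above every BD library, as for 13.5% of all genes tested, for Lif by the margin between libraries with 2 counts each. The other untested cytokines, Osm and Il11, had 5 counts each over the MCD, 0 over the HFD and 0 and 1 over the BD libraries, and their MCD and BD libraries overlapped. Il1a had 5.96 to 10.9 CPM in MCD, 4.45 to 6.87 CPM in HFD and 3.17 to 7.34 CPM in BD livers (edgeR adjusted p = 0.0857 for MCD against BD and 0.223 for MCD against HFD), and Clcf1 had the smallest p for HFD against BD (edgeR adjusted p = 0.751).

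Of 8 receptor genes, 1 was called higher and 1 lower in MCD against BD, beside 12.8% and 8.64% of all genes tested, so their share did not stand apart. Osmr, the oncostatin M receptor, had a log2 fold change of 0.99 ± 0.23, and Lifr, the leukaemia inhibitory factor receptor, fell by 1.22 (edgeR adjusted p = 0.00470 and 0.00441). Osmr was 6.72 to 9.63 CPM in MCD and 1.77 to 5.37 CPM in BD livers, and Lifr 112 to 208 CPM in MCD and 272 to 488 CPM in BD livers, both without overlap. In HFD against BD and in MCD against HFD edgeR called 0 receptor genes in either direction. The smallest p was that of Il1r1 for HFD against BD (edgeR adjusted p = 0.105) and of Lifr for MCD against HFD (edgeR adjusted p = 0.0555). Before adjustment, 1 receptor gene was higher and 0 lower at p under 0.05 in HFD against BD, and 1 higher and 2 lower in MCD against HFD. DESeq2 called 1 higher in HFD against BD and 1 lower in MCD against HFD, and limma-voom 0 and 1 lower.

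Among 16 signal carriers and transcription factors, 3 were called higher and 1 lower in MCD against BD, 1 higher in HFD against BD, and 0 in MCD against HFD, beside 12.8% higher and 8.64% lower of all genes in MCD against BD and 3.65% higher in HFD against BD. The 3 higher became 1 without BD replicate 2 or 3 or MCD replicate 1, or with the covariate, and the 1 higher in HFD against BD ended without BD replicate 2 or 3. Hnf4a, a factor that maintains hepatocyte genes, fell by 0.37 (edgeR adjusted p = 0.00777) and Nfkb2, an NF-kB subunit gene, rose by 0.87 (edgeR adjusted p = 0.0187), both in MCD against BD. Without TMM factors Hnf4a did not pass (edgeR adjusted p = 0.0933), and Nfkb2 did not with the covariate (0.192). For the 0 called in MCD against HFD, edgeR gave 0 higher and 1 lower at p under 0.05 before adjustment, and DESeq2 and limma-voom called 0. Stat3 itself had a log2 fold change of -0.25 ± 0.12 in MCD against BD (edgeR adjusted p = 0.166), a value chosen for mention after it was seen.

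Of 8 inhibitors and feedback genes, 2 were called higher in MCD against BD and 1 in HFD against BD, beside 12.8% and 3.65% of all genes tested. Tnfaip3, which encodes the NF-kB inhibitor A20, rose by 1.45 ± 0.28 in MCD against BD (edgeR adjusted p = 0.00129), at 7.02 to 13.9 CPM in MCD and 2.36 to 4.97 CPM in BD livers. Nfkbiz, a nuclear regulator of NF-kB targets including Lcn2, rose by 0.77 ± 0.15 in MCD against BD (edgeR adjusted p = 0.00102) and by 0.53 ± 0.15 in HFD against BD (edgeR adjusted p = 0.0399). The HFD call for Nfkbiz ended in 12 of 25 alternatives, among them leaving out BD replicate 1, 2, 3 or 4, HFD replicate 1, 2 or 3, or MCD replicate 1 (edgeR adjusted p from 0.0510 to 0.116). In MCD against HFD edgeR called 0, with 1 higher at p under 0.05 before adjustment, DESeq2 and limma-voom called 1 each, and Tnfaip3 had the smallest p (edgeR adjusted p = 0.0787). Socs3, which encodes the feedback inhibitor of STAT3 signalling and was chosen for mention after its values were seen, was 57.2 CPM in HFD replicate 1, against 4.37 to 10.1 CPM in the other HFD libraries, 4.19 to 11.04 CPM in MCD and 3.45 to 5.85 CPM in BD livers. HFD replicate 1 was also the second highest HFD library for Saa1, Saa2, Orm2, Hp, Hpx, Lcn2 and Apcs. It was not so for Saa3 or Orm1, and it was the lowest HFD library for Saa4. HFD replicate 2, the highest HFD library for those of the members where replicate 1 came second, was among the HFD libraries with Socs3 at 4.37 to 10.1 CPM. A link between Socs3 and the members was not tested.

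Of 16 receptors, partners and downstream enzymes of the 10 proteins, 4 were called higher in MCD against BD, 1 higher in HFD against BD and 0 in MCD against HFD, beside 12.8%, 3.65% and 2.22% of all genes tested. Without HFD replicate 2 there were 4 higher in MCD against HFD, where 6.80% of all genes were. Hmox1, which encodes the haem oxygenase that degrades haem delivered by hemopexin and haptoglobin, rose by 0.81 ± 0.12 in MCD against BD (edgeR adjusted p = 1.68e-04), at 38.1 to 49.5 CPM in MCD and 17.8 to 23.6 CPM in BD livers. It rose by 0.45 ± 0.12 in HFD against BD (edgeR adjusted p = 0.0325), and this ended without BD replicate 1, 3 or 4 or HFD replicate 1, 2 or 3 (edgeR adjusted p from 0.0502 to 0.0936). Fcgr3, an Fc receptor gene whose protein binds pentraxins, rose by 0.95 ± 0.16 in MCD against BD (edgeR adjusted p = 3.90e-04). In MCD against HFD, edgeR gave 6 higher and 1 lower at p under 0.05 before adjustment, DESeq2 called 1 higher and 1 lower, limma-voom 1 higher and 0 lower, and Tlr2 had the smallest p (edgeR adjusted p = 0.0515). Fcgr3 and Tlr2 are also expressed by macrophages, whose markers are given above beside Saa3.

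**Figure D5:**
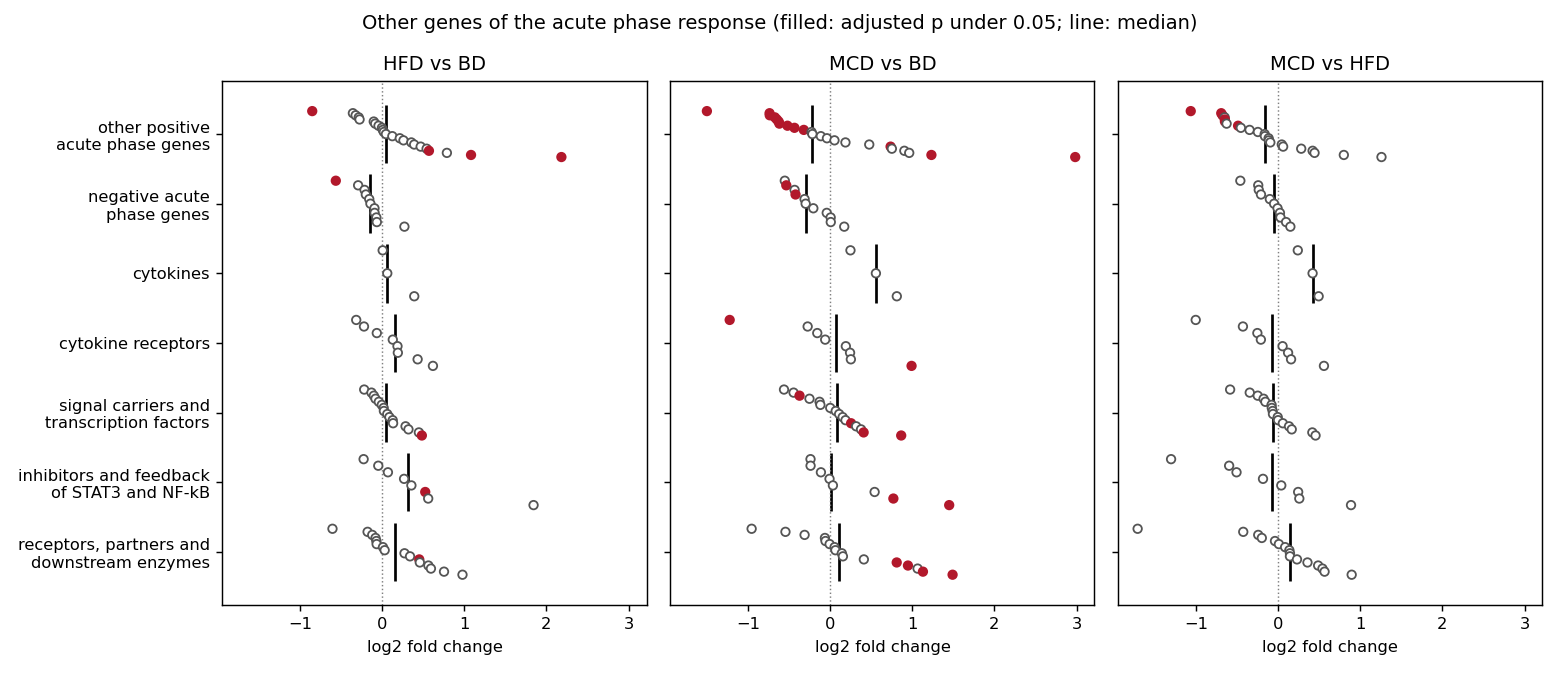
edgeR log2 fold changes (horizontal axis) of the tested genes in each list of the acute phase response, by comparison; filled points have an adjusted p under 0.05 and vertical lines are list medians. In MCD against BD, 10 of the 23 other positive acute phase genes are filled to the left of 0 and 3 to the right, with all 15 libraries; the 10 become 5 without TMM factors or MCD replicate 1.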

How the data were processed

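RNA of 15 liver libraries was analysed, 5 on each diet, grouped by the diet label and numbered in order of deposit. The deposited values are raw read counts, 1 table of gene symbols per library; per the submitters' processing notes the authors used Trimmomatic, TopHat2 (2.0.13), HTSeq and DESeq2 with GRCm38/mm10, and per the labels' protocols a kit that keeps strand. Which annotation, strand setting and mode of counting applied is not given in the sources used here, and the split between near-identical genes is uncertain.

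The 10 genes and the lists were chosen with earlier results of these data known. Rows for reads given to no gene stayed out of library sizes. Genes were kept by filterByExpr (minimum count 10, minimum total 15), scaled by TMM (factors 0.943 to 1.10) and fitted over all 15 libraries by edgeR 4.0.16 in R 4.3.3 (quasi-likelihood, robust, two-sided), with Benjamini-Hochberg adjustment over 12193 genes. SE was derived from the log2 fold change and the F statistic. The procedure was tested on simulated counts. Named genes are the 10 members, the 2 called genes with the smallest p per list and comparison (1 where none was called), and the gene most alike to each member by Pearson's r of log2 CPM (prior count 2). Some genes that this rule names are not reported here. Libraries of the same diet differed beyond sampling noise (chi-square over its degrees of freedom 7.33 to 65.0). Alternatives were DESeq2 1.42.0, limma-voom (3.58.1), other scalings, no count filter, no robust estimation, pairs of diets alone, each library left out, HFD replicate 2 and MCD replicate 3 left out together, a covariate for non-unique alignments, and summed paralogs. Promoters are from RefSeq (GRCm38.p6), loci and transcript lengths (transcript 201) from GENCODE M21.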

Additional observations from a re-analysis of the deposited data

Results flagged for a closer look

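Of 30 groups of 5 libraries (10 genes on 3 diets), 3 held a library whose gap to its nearest neighbour exceeded 0.71 of the group's range, Dixon's 95% critical value, which chance alone passes in about 1 of 20 groups. Lcn2 was 187 CPM in HFD replicate 2, with the next HFD library at 13.3 CPM, and Orm2 was 75.4 CPM in the same library, with the next at 12.9 CPM. Saa2 was 78.1 CPM in BD replicate 2, with the next BD library at 29.3 CPM.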

How the results depend on the processing

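Over 25 alternatives, 699 of 738 results on single members kept their direction, where called, and their side of the threshold. Members called lower numbered 0 in each comparison and alternative. Members higher in HFD against BD numbered 1, but 3 with DESeq2, 2 without robust estimation, 0 without HFD replicate 2 and MCD replicate 3 together, and 0 to 1 with each library left out. In MCD against BD they numbered 3, but 5 without TMM factors and 1 to 4 with each library left out. In MCD against HFD they numbered 1, but 3 without HFD replicate 2 and MCD replicate 3 together, 0 with the covariate for non-unique alignments, and 0 to 3 with each library left out. The log2 fold change of Lcn2 for MCD against HFD ran from -0.46 to 2.46 with each library left out, turning to 2.46 without HFD replicate 2 and to 2.58 without that library and MCD replicate 3; these fits lack the library with the highest Lcn2 level. The cause of the other changes was not tested. No paired analysis was possible because the labels give the diets no shared replicate numbers. Genes near 3 counts, such as Il6, cannot be compared at this depth.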
